A study of Rattus norvegicus with 8 samples.

Results

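Lung of rats that received human mesenchymal stem cells (MSCs) after 12 weeks of cigarette smoke was compared with lung of naive rats that breathed normal air. The comparison uses 4 of the 8 1-colour arrays of the series, 2 stem-cell-treated and 2 naive, taken by their sample titles. Of 45598 probes, 24014 passed the filter, being clearly detected on both arrays of the naive or of the MSC group, and with the brightest probe kept for each named gene they gave 20653 features. The MSCs came from human umbilical cord, and about 2500000 of them were delivered into the trachea in week 13. The remaining arrays hold 2 samples of smoke-exposed lung without treatment and 2 of smoke-exposed lung given extracellular vesicles (EVs), the membrane particles that cells release, from as many MSCs. All samples are pieces of whole lung of male rats, so the MSCs were human cells in a rat host, and strain, age and the time from delivery to sampling are not given in the sources used here. No group received MSCs without smoke, so the effects of smoke and of MSCs cannot be told apart in this comparison. The labels do not say that the samples of a group are separate animals, and the p-values reflect only how far these samples differ from each other, which may be technical. Alveolar type 2 and type 1 cells line the air spaces of the lung and keep surfactant and gas exchange going, club and ciliated cells line the airways, and resident macrophages clear particles and dying cells. Smoke is known to raise inflammatory and antioxidant genes in such tissue, and MSCs are known for secreted factors that act on macrophages and lymphocytes. The question asked here is which functions of the treated lung lay near naive levels and which lay away from them.

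A level is the log2 signal of a probe relative to the 75th percentile of its own array, so every difference is relative to the other probes of that array. That percentile was 581 and 373 signal units on the naive arrays and 250.1 and 264 on the MSC arrays, a ratio of 0.553, while the E1A spike-in RNAs, control RNAs added to each sample, had a ratio of 1.15. Scaling to those spike-ins therefore lowers each MSC minus naive difference by the same 1.06 log2, and any difference between 0 and 1.06 turns negative there. The percentile was 3312 and 2725 on the untreated smoke arrays, 6.46 times that of the naive arrays, and 778 and 494 on the EV arrays. Levels printed for those arrays are relative to these values. The share of probes well above background was 65.3% and 48.2% on the naive arrays and 53.9% and 56.0% on the MSC arrays. Levels of all kept features correlated at 0.960 between the naive arrays, 0.953 between the MSC arrays and 0.925 to 0.948 across the groups. The median difference was 0.23 log2 over all 20653 features and 0.12 over the 10916 with a gene symbol, or -0.83 and -0.94 with spike-in scaling. The tissue markers were present: the type 2 cell gene Sftpc stood at 9.46 and 9.84 in naive lung and 9.80 and 8.92 in treated lung, and 14 of 16 type 2 and 12 of 12 type 1 markers passed the filter on dim probes. Because each group filled a slide column of its own, column effects cannot be told apart from group effects, and the small number of arrays limits the precision.

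Few single genes passed the test between treated and naive lung, which does not show that the others had like levels. Of 20653 features, 151 (0.731%) were called at an adjusted p under 0.05 (limma, Benjamini-Hochberg), 102 higher (0.494%) and 49 lower (0.237%), of which 38 and 22 have a gene symbol. The called genes are not of 1 kind. On the higher side they include the macrophage scavenger receptor gene Cd163, olfactory receptor genes and a mast cell protease gene that neither naive array detected. On the lower side they include the glucocorticoid-activating enzyme gene Hsd11b1 and the iron-binding lipocalin gene Lcn2. In all 151 the MSC arrays did not overlap the naive arrays. Over all features the MSC arrays lay above the naive arrays in 37% and below them in 15.2%. The calls were picked by their differences, so their separation adds no support. With spike-in scaling 83 of the 151 were still called, a count that includes the lower calls, which the common shift can only enlarge. At an unadjusted p under 0.05 stood 5475 features, 3972 higher and 1503 lower. A larger set of 3404 features (16.5%) differed by more than 1 log2 with groups that did not overlap.

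The count of calls depends on single arrays and settings. Without naive replicate 2 it was 1, without naive replicate 1 or without MSC replicate 1 it was 316, and with no filter on dim probes it was 0, with 4729 features at an unadjusted p under 0.05. Of the 151 calls, 67.5% were higher, against 78.5% with normexp background correction, 43.4% with quantile normalization, 43.8% with cyclic loess and 1.95% of 3278 calls (15.9% of features, 0.31% higher and 15.6% lower) with spike-in scaling. Signal was low for many called features. Of the 49 called lower, 30 were not well above background on either MSC array, of the 102 called higher, 8 were not well above background on either naive array, and 53 of the 151 lay in the dimmest 10% of features.

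**Figure D1:**
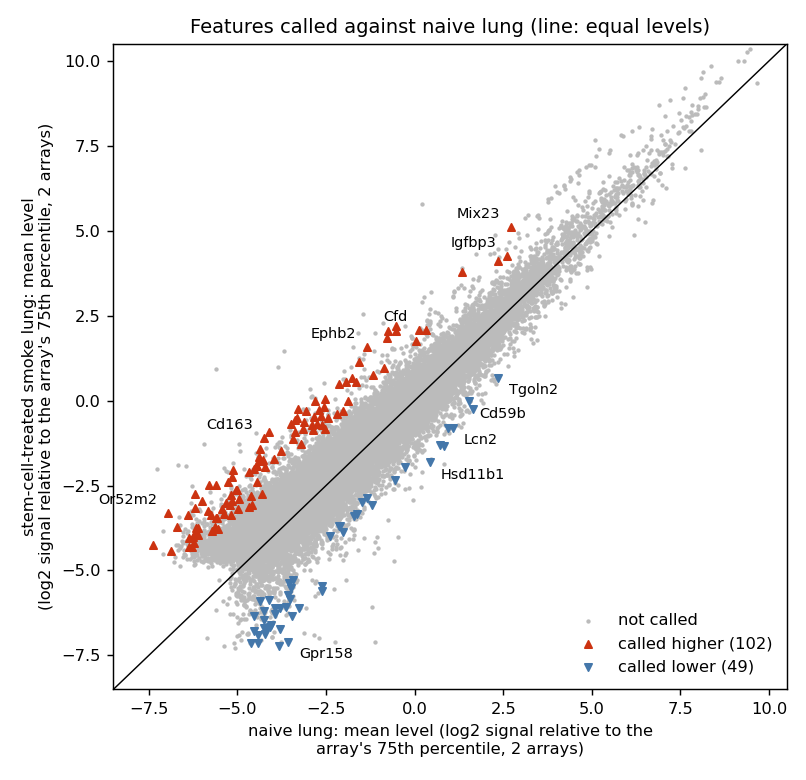
Mean level in stem-cell-treated smoke lung (vertical axis) against mean level in naive lung (horizontal axis) for 20653 features, each the mean of 2 arrays in log2 relative to the array's 75th percentile; the line marks equal levels. The 102 features called higher (red) and the 49 called lower (blue) include 53 in the dimmest 10%, and most grey features lie along the line.

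Cd163, the haptoglobin-hemoglobin scavenger receptor of macrophages, rose, with the largest difference among called genes well above background on all 4 arrays. Its level was -4.51 and -3.99 on the naive arrays and -1.75 and -0.47 on the MSC arrays, 8.81-fold higher (log2 difference 3.14, SE 0.45, limma adjusted p = 0.0356). Both treated arrays lay above all other arrays, since untreated smoke lung stood at -4.50 and -4.30 and EV-treated lung at -2.66 and -3.32. The call remained with spike-in scaling, at 2.08 (adjusted p = 0.0219), and over 17 settings the difference ranged from 1.88 to 3.78 and was called in 11. It was not called without naive replicate 1, naive replicate 2 or MSC replicate 2 (adjusted p = 0.0589, 0.138 and 0.0556). The log2 summed signal of the 15 measured macrophage genes was 5.22 and 4.92 in naive lung, 5.33 and 6.13 with MSCs, 5.25 and 5.27 with EVs and 5.40 and 5.37 in untreated smoke lung, and its part in the difference was not tested. In bulk tissue more cells of a type and more RNA per cell cannot be told apart.

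The C1q genes, which encode the chains of the recognition molecule of the classical complement pathway and are made by tissue macrophages, were also higher on the treated arrays without passing the threshold. C1qa was at -0.29 and -1.0 in naive lung and 0.99 and 2.11 in treated lung, a difference of 2.19 (95% interval 1.21 to 3.17, limma adjusted p = 0.0558). C1qb was at 1.41 and 0.80 against 2.73 and 3.70, a difference of 2.11 (1.24 to 2.98, adjusted p = 0.0523), and C1qc at -4.96 and -4.85 against -4.06 and -2.24, a difference of 1.75 (0.46 to 3.05, adjusted p = 0.111). In each the MSC arrays lay above the naive arrays, with replicate 2 the higher. On naive replicate 2 C1qc lay below the lowest level detected on that array (-4.744), so it passed only through the MSC group. There it is high, so it had to differ, and its interval, p-value and separate groups add no support. The microglia and macrophage receptor gene Trem2, which binds lipids, was at -0.43 and -1.68 against -0.09 and 0.62 (difference 1.32, adjusted p = 0.113). Not all macrophage genes stood above naive levels. Cd68, a lysosomal glycoprotein gene, differed by -0.66 (-1.36 to 0.03) and Lgals3, the galectin 3 gene, by 0.04 (-0.64 to 0.72). Of 15 measured macrophage genes 10 had a positive and 5 a negative difference. In 6 the MSC arrays lay above the naive arrays (37% of all features did) and in 1 below (15.2% did). Of 15 measured genes of the 20 in the macrophage list, 1 rose, Cd163 (0.494% of all features did), and 0 fell (0.237% did), and the list's median was 0.35. With MSC replicate 1 left out 4 of them were called higher, and with either naive array or MSC replicate 2 left out 0 were. Marco and Mrc1, which mark resident macrophages, were detected on 1 of the 2 naive arrays and on 0 of the 2 MSC arrays, and Adgre1 on 1 of 2 in each group, so these defining markers gave no value.

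The 150 bases before the annotated start of these genes are shown because these genes stood higher together in the treated lung. They were read on the gene's own strand from RefSeq, assembly GRCr8, in which 3 of the 4 genes looked for were found. Capitals mark a match to GAGGAA on either strand, a form of the sites bound by PU.1, the transcription factor of the myeloid lineage. Other forms of the site were not looked for. The C1qa stretch (chr5:154419934-154420083, minus strand) and the Cd163 stretch (chr4:158770624-158770773, plus strand) hold 0 matches, and the C1qb stretch (chr5:154407828-154407977, minus strand) holds 1, in the reverse orientation TTCCTC. Of 33469 promoters of this length, 14.5% hold the letters on either strand, and a match or its absence is a description of these letters only.
C1qa: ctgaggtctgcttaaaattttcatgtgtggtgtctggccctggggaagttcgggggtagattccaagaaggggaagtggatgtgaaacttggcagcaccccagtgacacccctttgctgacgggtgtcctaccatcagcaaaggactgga
C1qb: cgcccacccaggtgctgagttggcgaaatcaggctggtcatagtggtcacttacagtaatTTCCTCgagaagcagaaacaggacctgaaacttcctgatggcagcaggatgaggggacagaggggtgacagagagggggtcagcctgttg
Cd163: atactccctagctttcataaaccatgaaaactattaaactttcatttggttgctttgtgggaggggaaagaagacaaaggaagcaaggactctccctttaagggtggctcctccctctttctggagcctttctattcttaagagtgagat

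**Figure D2:**
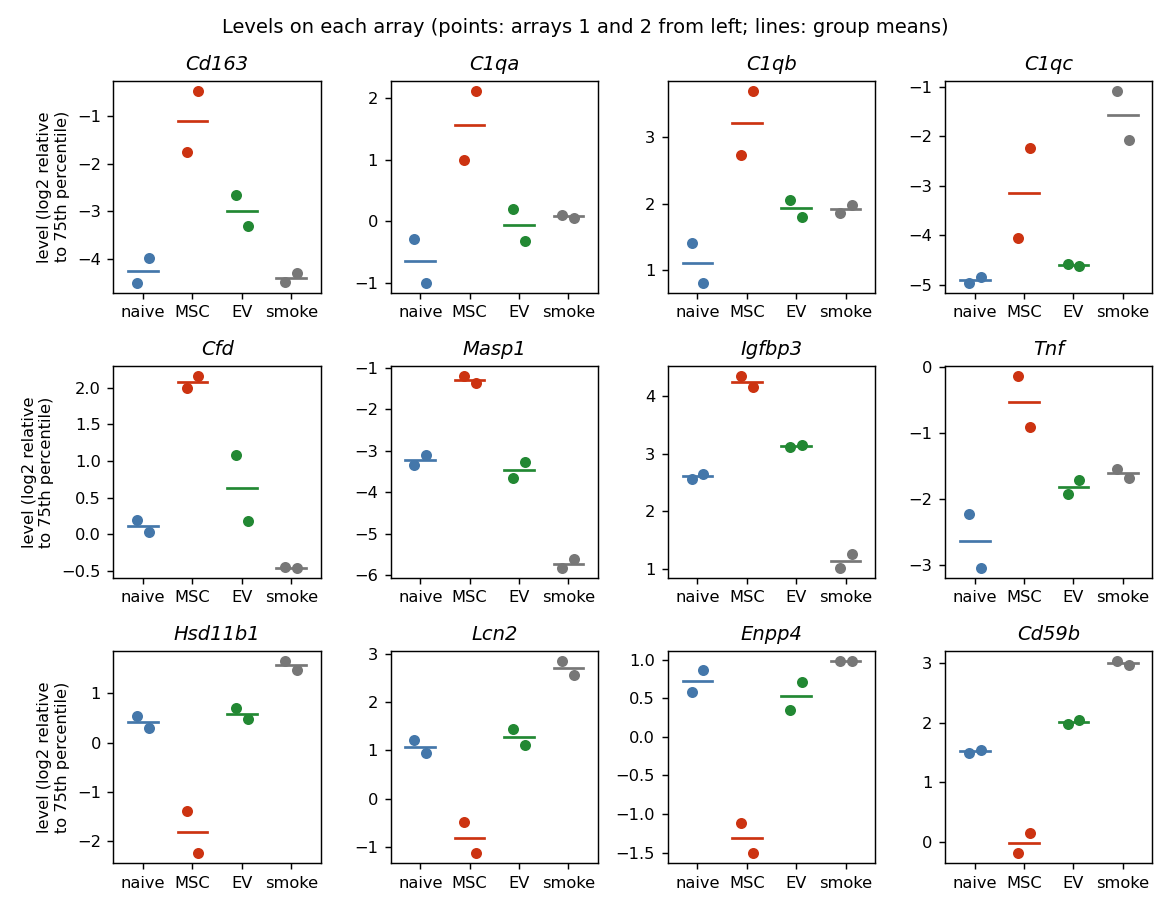
Level of 12 genes on each of the 8 arrays, in log2 relative to the array's 75th percentile; points are arrays, lines are group means of 2 arrays, and each panel has its own vertical scale. In the upper rows the MSC arrays lie above both naive arrays, and in the lowest row Hsd11b1, Lcn2, Enpp4 and Cd59b lie below them.

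By size, the other genes called highest were of mixed function. Ephb2, a receptor for ephrin-B ligands, was at -1.53 and -1.16 in naive and 1.47 and 1.71 in treated lung, 7.66-fold higher (limma adjusted p = 0.0306). Mcpt1, a mast cell protease gene, was below detection on both naive arrays (-6.81 and -6.61 against -4.18 and -3.29) and was higher by at least 3.53-fold (adjusted p = 0.0475). It passed the filter only through the MSC group, where it is high, so it had to differ and its p-values add no support. Mcpt1 was called in 5 of 16 settings. The receptor gene Ly49s5 was at -0.62 and -0.45 against 2.26 and 2.17, 6.72-fold higher (adjusted p = 0.0306). Ly49 genes, which encode lectin-like receptors of natural killer cells, are close copies of each other, which makes a single value uncertain. Zfp507, a zinc finger gene, was 6.44-fold higher, Vangl1, of planar cell polarity, 6.14-fold, and Zzz3, a subunit of a histone acetyltransferase complex, 5.95-fold, with adjusted p from 0.0356 to 0.0398. All of these were also called with spike-in scaling, Mcpt1 with adjusted p = 0.0447.

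Another probe of the same gene did not always follow. Zzz3 has 3 kept probes: the brightest went from -0.60 and -0.45 to 2.19 and 1.91, another from -1.73 and -1.79 to -0.81 and -1.31, and the last from -3.14 and -3.86 to -4.23 and -3.86. The other probe of Vangl1 went from -1.72 and -0.92 to -2.48 and -1.07, and that of Zfp507 from -4.31 and -4.35 to -4.13 and -3.80. Of 10 called genes with several kept probes, 5 had probes of opposite sign, among them Map2k1, Mix23, Vangl1 and Zzz3. When the probes of a gene were averaged, 73 features were called.

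Control probes had a like pattern over the arrays. Of 96 probes for synthetic ERCC sequences, which are no rat genes, 8 were detected on both naive arrays and 14 on both MSC arrays, with a median difference of 1.22 in level and 0.37 in signal before scaling. ERCC-00113_271 stood at 0.13 and 0.11 on the naive arrays, 3.11 and 2.90 with MSCs, 0.45 and 2.33 with EVs and -6.90 and -5.28 in untreated smoke lung. Ephb2 stood at -1.47 and -0.62 with EVs and -6.80 and -6.09 in untreated smoke lung. Zfp507 stood at -1.55 and -0.64 with EVs and -6.83 and -6.05 in untreated smoke lung, so both genes and the control probe were lowest on the smoke arrays. Of the 102 features called higher, 21 (20.6%) lay more than 4 log2 lower in untreated smoke than in naive lung, a difference that shares the naive arrays, against 180 (0.872%) of all features. The part of this pattern in the calls was not tested. Cd163 did not share the low smoke level, at -4.50 and -4.30.

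**Figure D3:**
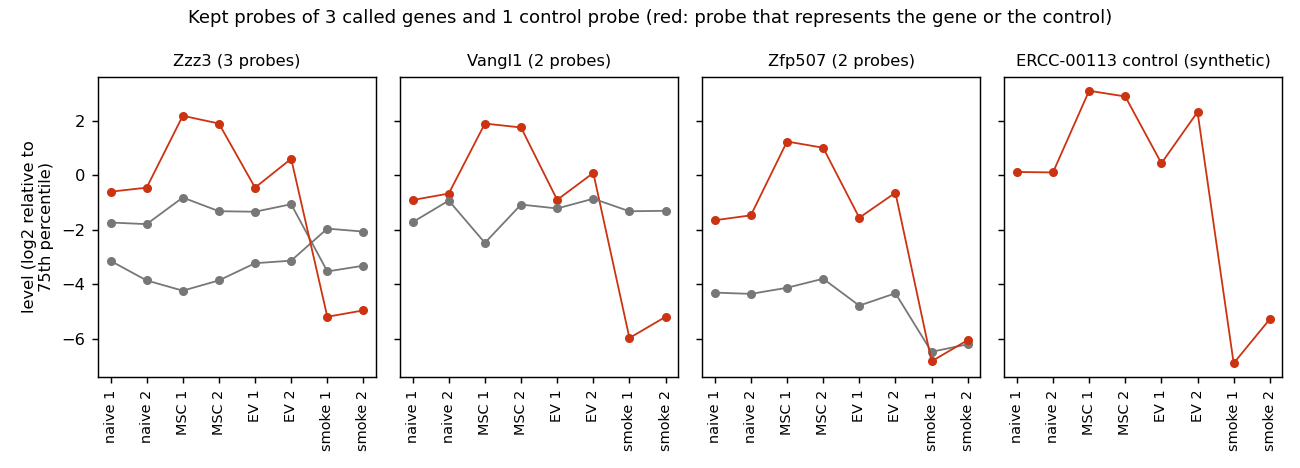
Level on the 8 arrays (horizontal axis) of every kept probe of Zzz3, Vangl1 and Zfp507 and of 1 ERCC control probe, in log2 relative to the array's 75th percentile; lines join the arrays of 1 probe and red marks the probe that stands for the gene. The red probes and the control probe are high on the MSC arrays and lowest on the smoke arrays, while the grey probes differ less between MSC and naive arrays.

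The 10 genes called lowest were detected on both naive arrays and on neither MSC array, so only bounds can be given. Ccdc68, a centriole protein gene, was at -2.73 and -2.50 in naive and -5.31 and -5.90 in treated lung, lower by at least 5.16-fold (limma adjusted p = 0.0299). Igsf21, an adhesion gene, was at -3.25 and -1.98 against -5.37 and -5.52, lower by at least 5.16-fold (adjusted p = 0.0475). Gpr158, an orphan receptor gene, was at -3.49 and -3.67 against -7.02 and -7.16, lower by at least 2.65-fold (adjusted p = 0.0131). In these genes the groups did not overlap, and the bounds hold on the percentile scale only. Fundc2, of the mitochondrial outer membrane, had a bound of 2.86-fold, C2cd2l, a lipid transfer protein gene, of 2.25-fold, and the vomeronasal receptor gene Vom2r15 of 2.24-fold. The bounds were under 1.70-fold for Atp13a4 (1.69), Kctd21 (1.49) and Smc5 (1.28), a DNA repair gene. The filter admitted these genes through naive lung, where they are high, so they had to differ and their p-values and separate groups add no support. With normexp background correction 6 of these 9 differences turned to between 0.012 and 0.30, and Ccdc68, Igsf21 and Gpr158 stayed negative without a call.

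Among calls outside the 10 in each direction, chosen here after their values were seen, several lower genes were measured in both groups. Hsd11b1, which regenerates active glucocorticoid inside cells, was at 0.55 and 0.29 in naive and -1.39 and -2.25 in treated lung, 4.74-fold lower (log2 difference -2.24, SE 0.34, limma adjusted p = 0.036). Lcn2, a lipocalin of neutrophil granules and inflamed epithelium, was at 1.21 and 0.95 against -0.49 and -1.13, 3.71-fold lower (adjusted p = 0.0475). Untreated smoke lung stood at 2.86 and 2.57 for Lcn2 and 1.66 and 1.49 for Hsd11b1. On the percentile scale the treated lung thus lay on the far side of naive lung from smoke lung. Enpp4, an ectoenzyme gene, was 4.09-fold lower (0.58 and 0.87 against -1.11 and -1.51, adjusted p = 0.0356). Cd59b, of the family that blocks the membrane attack complex, was 2.91-fold lower (1.5 and 1.55 against -0.19 and 0.15, adjusted p = 0.0475). The trans-Golgi gene Tgoln2 was 3.22-fold lower, though its other probe differed by -0.15, and Sptlc1, of sphingolipid synthesis, was 3.17-fold lower.

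The higher genes named next were chosen in the same way. Cfd, the serine protease that starts the alternative complement pathway, was at 0.19 and 0.04 in naive and 1.99 and 2.16 in treated lung, 3.9-fold higher (limma adjusted p = 0.0475). Masp1, a protease of the lectin pathway, was at -3.34 and -3.09 against -1.19 and -1.37, 3.83-fold higher (adjusted p = 0.0356). Igfbp3, which binds insulin-like growth factors, was at 2.57 and 2.64 against 4.35 and 4.15, 3.13-fold higher (adjusted p = 0.0447). The 2 arrays of each group lay close together in these genes. With spike-in scaling the differences were 0.91 for Cfd, 0.88 for Masp1 and 0.59 for Igfbp3, none of them called. Hspb8, a small heat shock protein gene, was 3.21-fold higher (-2.62 and -2.44 against -0.81 and -0.88, adjusted p = 0.036). It was the 1 call among 15 measured heat shock and chaperone genes (0.494% of all features were called higher), whose median was -0.02. Lcp2, an adaptor of T cell receptor signalling, was 4.1-fold higher. It was detected on 1 of the 2 naive arrays, so it passed only through the MSC group, where it is high, and had to differ. The skeletal muscle genes Ckm and Tnnt1 were 3.76-fold and 4.89-fold higher. With spike-in scaling Hspb8 (0.62, adjusted p = 0.368), Lcp2 (0.98, 0.188), Ckm (0.85, 0.24) and Tnnt1 (1.23, 0.0937) were not called either. Ckm belongs to a list of neighbouring tissues such as skeletal muscle, of which 6 of 18 genes were measured, with a log2 summed signal of 1.76 and 2.04 on the naive and 2.21 and 3.20 on the MSC arrays; the part of other tissue in these values was not tested.

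Housekeeping functions lay near naive levels relative to the rest of the array. A gene is called near when the 95% limma interval of its difference lies wholly within 1 log2 of naive, which held for 4814 features (23.3%) and for 27.4% of named genes. Nearness was less common at low signal, from 6.39% of the dimmest 10% of features to 37.2% of the next to brightest 10%. It refers to the percentile scale only, since the common shift left 6 features near with spike-in scaling.

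Among 27 measured respiratory chain genes, which encode subunits of the mitochondrial complexes, 14 (51.9%) were near and 21 within 0.5 log2 of naive, with a median of -0.02 and 0 calls. Cox6c stood at 3.93 and 3.76 in naive and 4.28 and 3.59 in treated lung, and Ndufv1 at 2.23 and 2.27 against 2.41 and 2.13. The median over the list was -0.05 on MSC replicate 1 and -0.05 on replicate 2, though single members differed between the treated arrays. Of 24 proteasome genes 14 (58.3%) were near and 22 within 0.5 log2, with a median of 0.16, as with Psma6 at 3.17 and 3.17 against 3.34 and 2.89. Of 17 cholesterol synthesis genes 8 were near, with a median of -0.05. Of 28 cytosolic ribosome genes 15 (53.6%) were near, but their median was 0.31 and the MSC arrays lay above the naive arrays in 16 of them (37% of all features did), with Rps14 at 4.29 and 4.53 against 5.19 and 5.25 and 0 calls. The other 2 kept probes of Rps14 differed by 0.27 and -0.35.

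Antioxidant genes, which smoke is known to raise through the factor NRF2, also lay close to naive levels. Of 18 measured members of the NRF2 and glutathione list 16 were within 0.5 log2 (49.9% of all features were) and 4 (22.2%) were near, a share like that of all features, with a median of -0.14 and 0 calls. Nfe2l2, which encodes NRF2, stood at 0.99 and 1.11 in naive and 0.52 and 0.63 in treated lung, and its target Srxn1 at -1.59 and -1.48 against -1.41 and -1.5. Nqo1, a quinone reductase gene, was near, at -2.61 and -1.92 against -2.29 and -2.52 (-0.14, 95% interval -0.99 to 0.70). Hmox1, the heme oxygenase gene, had the same mean difference, -0.14, with an interval of -1.71 to 1.43 and MSC arrays at 0.28 and -1.95. Furthest from naive in the list was Slc7a11, the cystine transporter gene, at -5.54 and -5.23 against -4.05 and -3.32 (1.70, adjusted p = 0.0604). It was detected on 1 of the 2 naive arrays, so it passed only through the MSC group, where it is high. It thus had to differ, and its p-value adds no support. Of 10 measured aryl hydrocarbon receptor and xenobiotic genes 3 were near and 0 called. In that list Fmo2, a flavin monooxygenase of lung, stood at 4.32 and 4.61 against 6.19 and 5.82 (1.54, adjusted p = 0.0691), and Cyp2e1, a cytochrome P450 gene, at -3.14 and -1.26 against -3.80 and -4.64 (-2.02, adjusted p = 0.0969). Cyp2e1 was detected on 1 of the 2 MSC arrays, so it passed only through naive lung, where it is high, and had to differ. The smoke-induced Cyp1a1 was not well above background on any of the 4 arrays and gave no value, and the macrophage elastase gene Mmp12 passed on 1 of the 2 naive arrays and 0 of the 2 MSC arrays.

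Inflammatory signalling showed no call, with members on both sides of naive. Of 13 measured NF-kB genes 10 were within 0.5 log2 and 4 near, with a median of -0.16. Rela, the p65 subunit, stood at -2.0 and -2.38 in naive and -2.70 and -2.34 in treated lung (-0.33, 95% interval -1.01 to 0.35), and its inhibitor gene Nfkbia at 2.62 and 3.26 against 3.40 and 2.58. Untreated smoke lung stood at 0.45 and 0.09 for Rela. Prkcz, an atypical protein kinase C gene, was at -0.47 and -0.61 against -1.29 and -1.64 (-0.92, adjusted p = 0.0941).

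Of 15 measured cytokine and chemokine genes 2 were near, 6 differed by more than 1 log2 with groups that did not overlap (16.5% of all features did) and 0 were called. Tnf, the tumour necrosis factor gene, was at -2.22 and -3.05 in naive and -0.13 and -0.91 in treated lung, a difference of 2.12 (1.25 to 2.98, limma adjusted p = 0.0521). The neutrophil growth factor gene Csf3 was at -2.76 and -3.12 against -0.07 and -1.44 (2.19, adjusted p = 0.0638). Both treated arrays lay above both naive arrays in these genes. In the other direction the neutrophil attractant Cxcl1 was at -2.58 and -2.69 against -3.53 and -3.97 (-1.12, adjusted p = 0.0928), the alarmin Il33 at 0.25 and -0.41 against -1.18 and -1.06 (-1.04, adjusted p = 0.0966), and Il1a at -1.62 and -1.94 against -3.37 and -3.36 (-1.58, adjusted p = 0.117). The T cell attractant Ccl5 was at 0.58 and 2.46 against -0.08 and -0.59 (-1.85, adjusted p = 0.122), with naive arrays far apart. Il1b was near naive levels, at 0.57 and 0.51 against 0.24 and 0.98 (0.07, -0.86 to 1.0). Ccl2, the monocyte attractant, was at -3.99 and -5.61 against -4.22 and -2.72 (1.33, -0.13 to 2.79), with groups that overlapped. On naive replicate 2 Ccl2 lay below the lowest level detected on that array (-4.744), so it passed only through the MSC group. Il6 and Il10 were not well above background on any of the 4 arrays.

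Interferon response genes stood slightly below naive levels without a call. Of 18 measured members 14 were within 0.5 log2 and 4 near, the median was -0.30, and the MSC arrays lay below the naive arrays in 7 (15.2% of all features did). Isg15, a ubiquitin-like effector, was at -0.10 and -0.49 in naive and -1.07 and -2.07 in treated lung (-1.28, limma adjusted p = 0.162). Irf9 and Stat2, transcription factors of the response, were near, at -0.03 and 0.10, though another probe of Irf9 differed by -1.10. The list median was 0.01 on MSC replicate 1 and -0.41 on replicate 2. Of 13 class I antigen presentation genes 10 were within 0.5 log2 and 5 near, with a median of 0.36. RT1-CE5, a class I gene, was at 3.44 and 2.75 against 3.44 and 3.53 (0.39, -0.31 to 1.08), while untreated smoke lung stood at -6.09 and -5.94. RT1 genes are close copies of each other, so the value of a single one is uncertain.

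**Figure D4:**
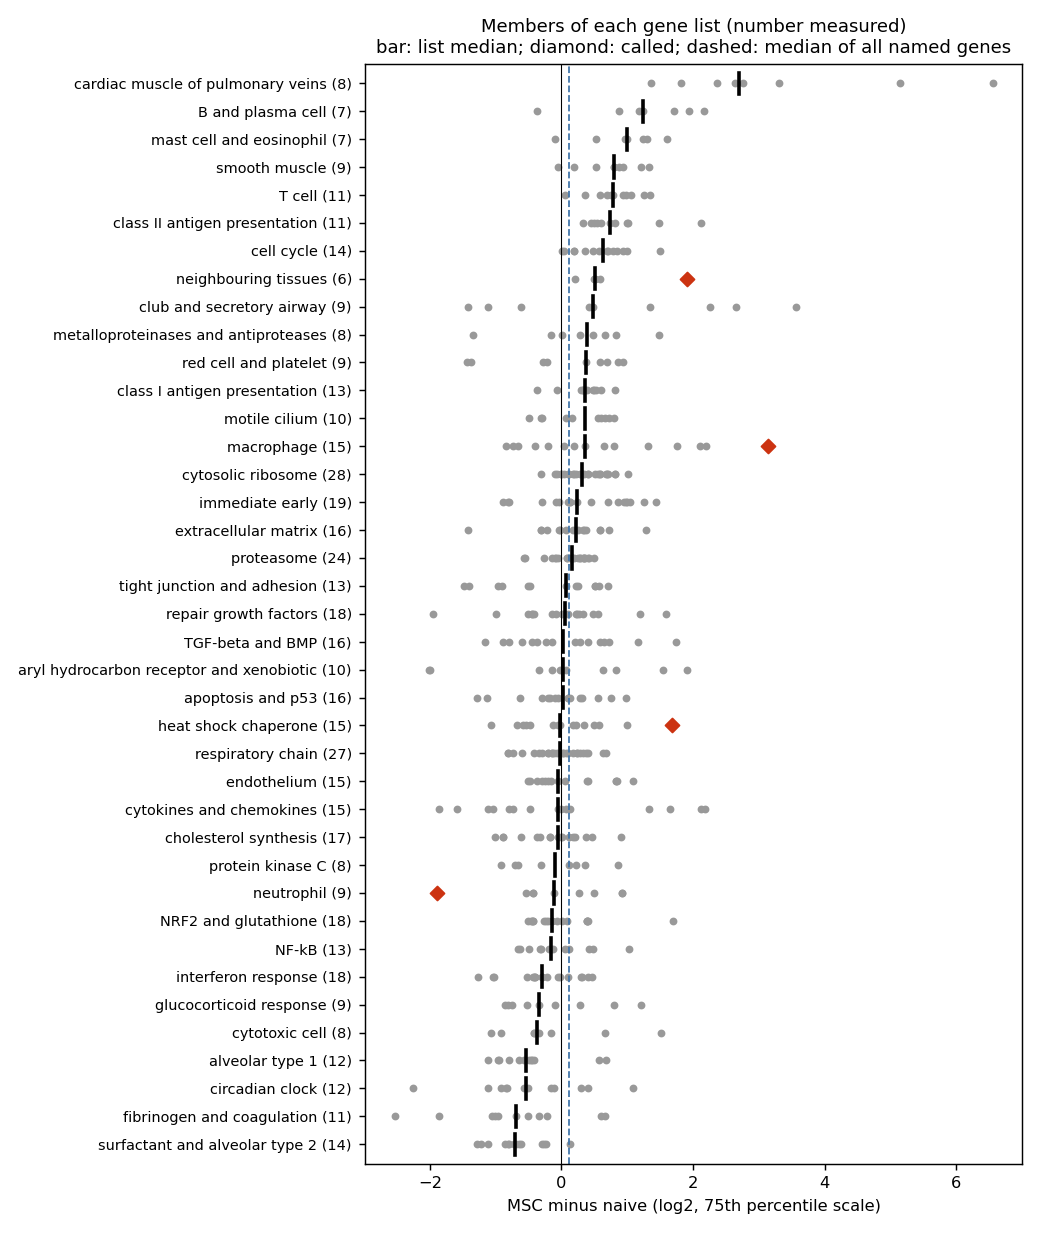
MSC minus naive difference of each measured member (points, log2 on the percentile scale) of 39 gene lists, ordered by list median (black bars), with called members as red diamonds and the median of all named genes as a dashed line. Respiratory chain, proteasome and NRF2 members gather around 0, cardiac muscle, B cell and mast cell genes lie to the right, and alveolar type 1 and type 2 genes lie to the left.

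Alveolar epithelial genes lay below naive levels, mainly on MSC replicate 2. Of 14 measured type 2 genes 13 had a negative difference, 4 were within 0.5 log2, 0 were near and 0 called, with a median of -0.71. Sftpb, which encodes surfactant protein B, was at 7.51 and 7.77 in naive and 7.28 and 6.39 in treated lung (-0.81, limma adjusted p = 0.178), and the phosphate transporter gene Slc34a2 at 1.72 and 1.21 against 0.94 and -0.58 (-1.28, adjusted p = 0.138). Fasn, the fatty acid synthase gene, was at 3.6 and 2.95 against 2.51 and 1.82 (-1.11, adjusted p = 0.114), and Sftpc differed by -0.29 (-1.10 to 0.52). Of 12 type 1 genes 10 had a negative difference, with a median of -0.54 and 0 calls. The receptor gene Ager was at 7.39 and 7.13 against 7.72 and 5.98, the water channel gene Aqp5 at 3.63 and 2.91 against 2.77 and 1.53, and Hopx at 4.88 and 4.87 against 5.28 and 3.57. MSC replicate 2 was the low array in each, but another probe of Hopx differed by 0.76 where the printed one differed by -0.45. The type 2 median was -0.13 on MSC replicate 1 and -1.24 on replicate 2, and the type 1 median 0.23 and -1.29. The endothelial list had medians of 0.47 and -0.56, with a median of -0.05 over 15 genes, 10 of them within 0.5 log2. Its member Kdr, the main receptor for vascular endothelial growth factor, was at 5.78 and 6.08 against 6.39 and 5.37 (-0.05, -0.92 to 0.83).

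Barrier and growth factor genes included members below naive levels on both treated arrays. Among 13 tight junction and adhesion genes in 4 both MSC arrays lay below both naive arrays (15.2% of all features did), in 2 above (37% did), and 0 were called. The scaffold gene Tjp1 was at 0.55 and 0.21 in naive and -0.61 and -1.43 in treated lung (-1.40, limma adjusted p = 0.0678) and F11r, a junctional adhesion molecule gene, at -0.55 and -1.45 against -1.96 and -2.99 (-1.47, adjusted p = 0.0918), while another F11r probe differed by 0.60. Among 16 genes of the TGF-beta and BMP families 1 was near and 0 called. The receptor gene Tgfbr2 was at 2.12 and 2.0 against 1.06 and 0.74 (-1.16, adjusted p = 0.0618), though its other probe differed by 0.58, and the ligand gene Bmp5 was at 1.10 and 0.39 against 3.13 and 1.85 (1.75, adjusted p = 0.0785). Of 16 extracellular matrix genes 11 were within 0.5 log2, with a median of 0.22. The fibronectin gene Fn1 was at 0.93 and 1.0 against -0.29 and -0.61 (-1.42, adjusted p = 0.0523), and the elastin gene Eln at 3.41 and 2.83 against 3.87 and 3.55 (0.59, -0.17 to 1.36). Of 18 repair growth factor genes 12 were within 0.5 log2 and 5 near, with a median of 0.06, as with Pdgfra at 0.10. The 5 kept probes of Igf1 ranged from -0.40 to 1.19. Away from naive stood Areg, the amphiregulin gene, at -1.96 (adjusted p = 0.126) and the fibroblast growth factor gene Fgf10 at 1.19 (adjusted p = 0.2).

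Airway genes differed between the treated samples. Of 9 measured club and secretory genes 0 were near and 0 called, with a median of 0.48, or -7e-04 on MSC replicate 1 and 1.02 on replicate 2. Scgb1a1, the club cell secretory protein gene, was at 6.41 and 7.54 in naive and 5.40 and 7.31 in treated lung (-0.62, -1.99 to 0.75). Bpifa1, an antimicrobial gene of large airways, was at -3.14 and -0.92 against -1.85 and 3.1, and Scgb3a1 at -2.82 and -0.36 against -0.47 and 4.43. MSC replicate 2 stood above all other arrays of the comparison in both. Pigr, which carries antibodies across epithelium, was at 7.16 and 6.94 against 8.71 and 8.07 (1.34, limma adjusted p = 0.0829), high on both treated arrays, with another probe at 0.43. Motile cilium genes had medians of -0.40 and 0.99 on the MSC arrays, with 0 of 10 measured genes called.

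Genes of heart muscle, which in rat also sheathes the large pulmonary veins, stood highest on the same array. All 8 measured of 12 cardiac genes had a positive difference with 0 calls, and the list median was 2.69, or 0.77 on MSC replicate 1 and 4.81 on replicate 2. Myl7, an atrial myosin light chain gene, was at -4.75 and -2.61 in naive and -1.56 and 4.49 in treated lung. Myh6, a myosin heavy chain gene of atrial muscle, was at -7.48 and -3.75 against -2.25 and 4.11, so MSC replicate 2 stood far above the other 3 arrays in both. Myh6 was detected on 1 of the 2 naive arrays and passed only through the MSC group. The log2 of the summed signal of the list was 1.32 and 1.55 in naive lung, 2.0 and 6.35 with MSCs, 5.18 and 1.44 with EVs and 0.57 and 0.75 in untreated smoke lung. Nppa was not well above background on any of the 4 arrays of the comparison, and Ryr2 and Sln on 1 of the 2 MSC arrays only. The smooth muscle list had a median of 0.79 over 9 genes, 0.05 and 1.37 on the MSC arrays, with Myh11 at 2.39 and 2.10 against 2.96 and 3.94 (1.20, limma adjusted p = 0.107) and 0 calls. The part of the muscle signal in the airway and alveolar values of MSC replicate 2 was not tested.

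Most measured T cell and B cell genes lay above naive levels, also with the larger difference on MSC replicate 2. All 11 measured T cell genes had a positive difference, the MSC arrays lay above the naive arrays in 7 (37% of all features did), and 0 were called, with a median of 0.78, or 0.42 and 1.15 on the MSC arrays. The T cell markers Cd2, Cd5 and Cd8a were not well above background on any of the 4 arrays. Lck was so on 1 of the 2 naive arrays only, and these markers gave no value. Cd3e, a chain of the T cell receptor complex, was at -2.22 and -2.0 in naive and -1.5 and -0.62 in treated lung (1.05, limma adjusted p = 0.128), and Cd3d at 0.71 and 0.65 against 1.10 and 1.83 (0.78, adjusted p = 0.165). Cytotoxic genes had a median of -0.38 over 8 genes, with the perforin gene Prf1 at -1.57 and -2.35 against -3.25 and -2.82 (-1.07, adjusted p = 0.192), while the death ligand gene Faslg was at -2.61 and -2.60 against -0.68 and -1.5 (1.52, adjusted p = 0.0637), with another Faslg probe at -0.99. B and plasma cell genes had a median of 1.24 over 7 genes, or 0.56 and 2.96 on the MSC arrays. No probe was matched to the B and plasma cell markers Cd79a, Ms4a1 and Jchain, so they gave no value. The plasma cell receptor gene Tnfrsf17 was at -3.64 and -4.05 against -2.95 and -0.42. All 11 class II antigen presentation genes had a positive difference, with a median of 0.73, 0.26 and 1.53 on the MSC arrays, and 0 calls, and the median was 0.22 without naive replicate 2. Cd74, the invariant chain gene, was at 3.61 and 2.54 against 3.35 and 4.26, so the groups overlapped. With spike-in scaling the T cell and class II medians turned to -0.28 and -0.33, and the B cell median was 0.18.

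Measured mast cell and eosinophil genes lay above naive levels by their median on both treated arrays. The median of 7 measured mast cell and eosinophil genes was 1.00, or 0.77 and 1.16 on the MSC arrays, and -0.06 with spike-in scaling. In 4 of the 7 the MSC arrays lay above the naive arrays (37% of all features did). The markers Fcer1a, Epx and Il5ra were not well above background on any of the 4 arrays. Ms4a2 was so on 1 of the 2 MSC arrays only, and these markers gave no value. The tryptase gene Tpsab1 was at -4.03 and -3.22 in naive and -2.31 and -1.73 in treated lung (1.60, limma adjusted p = 0.0978), and Tpsb2 at -2.65 and -3.63 against -1.32 and -2.49 (1.23, adjusted p = 0.144). The carboxypeptidase gene Cpa3 was at -3.66 and -3.15 against -2.66 and -2.15 (1.0, adjusted p = 0.204). None of these passed the test, and Hdc, which makes histamine, was near, at -0.10. Of 9 measured neutrophil genes 1 fell, Lcn2 (0.237% of all features did), and 0 rose (0.494% did). In 3 of the 9 (33.3%) the MSC arrays lay above the naive arrays, a share near that of all features (37%). Among the 3 was Ncf1, an oxidase subunit gene, at 3.24 and 2.55 against 3.83 and 3.82 (0.93, adjusted p = 0.141). The calprotectin gene S100a8 was at -1.18 and -0.08 in naive and -1.25 and -0.86 in treated lung, and S100a9 at 1.20 and 2.55 against 2.09 and 3.49, with groups that overlapped. Red cell and platelet genes had a median of 0.37 over 9 genes with 0 calls, and the platelet factor gene Pf4 was at 3.29 and 2.30 against 1.76 and 1.08 (-1.37, adjusted p = 0.091).

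**Figure D5:**
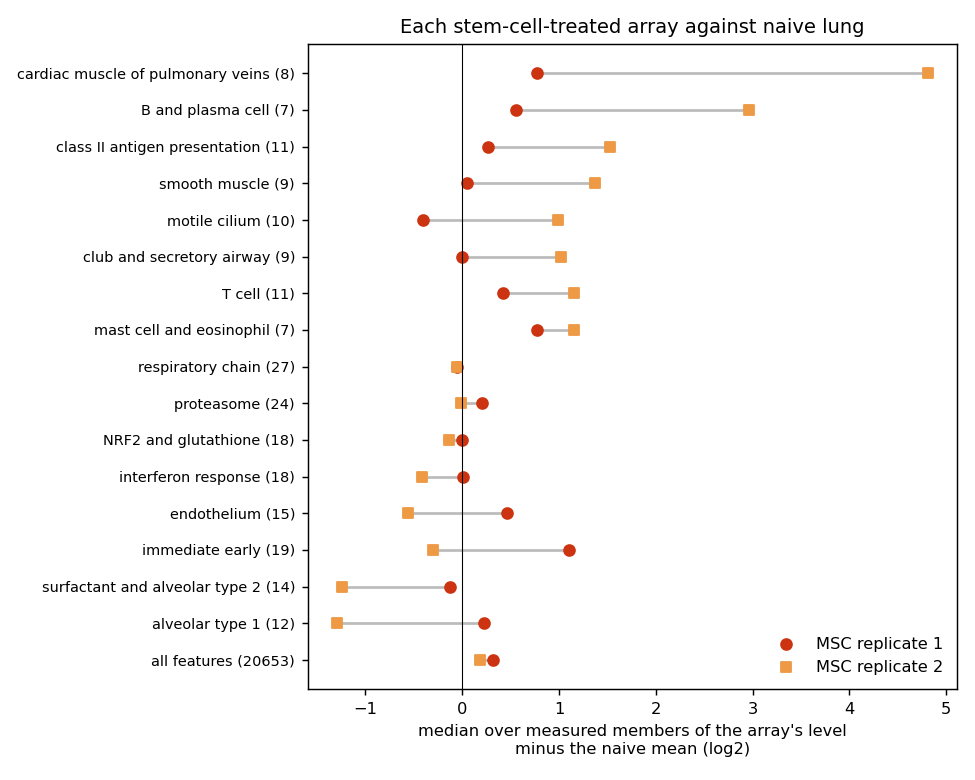
Median over the measured members of 16 gene lists and over all features of the level on each MSC array minus the naive mean (horizontal axis, log2 on the percentile scale); circles are MSC replicate 1, squares are MSC replicate 2, and the number of genes is in brackets. The respiratory chain points coincide near 0, while the cardiac list spans 0.77 to 4.81 and the alveolar type 1 list 0.23 to -1.29.

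Clock and coagulation values depended on naive replicate 2. Of 12 measured circadian clock genes 9 had a negative difference and 0 were called, with a median of -0.54 that turned to 0.20 without naive replicate 2. Per2, a repressor of the clock, was at -5.29 and -2.57 in naive and -6.91 and -5.45 in treated lung, and Nr1d2 at 1.02 and 2.94 against 1.05 and 1.25. The treated Per2 levels lay below the lowest levels detected on the MSC arrays (-4.997 and -4.968). Per2 thus passed only through naive lung, where it is high, and had to differ. Npas2 and Clock, which encode alternative partners of the activator Bmal1, lay on opposite sides of naive levels, with Npas2 at -1.96 and -2.43 against -3.15 and -3.47 (-1.12, limma adjusted p = 0.0864) and Clock at -5.82 and -5.13 against -4.43 and -4.34 (1.09, adjusted p = 0.0983). Clock was detected on 1 of the 2 naive arrays, so it passed only through the MSC group, where it is high, and had to differ. The fibrinogen gamma chain gene Fgg was at -3.22 and -0.67 against -4.07 and -4.90, and the coagulation list had a median of -0.70 over 11 genes, or -0.21 without naive replicate 2. Immediate early genes had a median of 1.10 on MSC replicate 1 and -0.31 on replicate 2, with Fos at -2.55 and -3.71 against -0.62 and -3.12 and 0 of 19 called. Of 14 cell cycle genes all had a positive difference, with a median of 0.64, 0.14 and 0.90 on the MSC arrays. Mcm3, of the replicative helicase, was at -0.56 and -0.25 against 0.75 and 1.44 (1.5, adjusted p = 0.0712), while another Mcm3 probe differed by 0.17, and with spike-in scaling the list median turned to -0.42. In the glucocorticoid response list 0 of 9 were near and 0 called, with the metallothionein gene Mt1 at 1.44 and 1.84 against 2.93 and 2.76 (1.21, adjusted p = 0.0628). Of 16 apoptosis and p53 genes 10 were within 0.5 log2, with a median of 0.02.

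Olfactory, vomeronasal and taste receptor genes, which sense odours, pheromones and tastes, lay mostly above naive levels on the percentile scale, while their median was -0.23 with spike-in scaling. Of 1221 such genes 141 passed the filter, and in 102 of these the MSC arrays lay above both naive arrays (37% of all features did). Only 83 of the 141 were detected on all 4 arrays, against 17557 of 20653 features, and the rest passed through 1 group only. The filter favours separation toward the group a gene passed through, and its part in the 102 was not tested. Of the 141, 3 rose (0.494% of all features did) and 1 fell (0.237% did): Or52m2 by at least 4.75-fold (-7.56 and -6.33 against -3.57 and -3.04, limma adjusted p = 0.0475), Or52e51 (-5.25 and -5.29 against -2.54 and -2.28, adjusted p = 0.0356), Or8h7b (-3.50 and -3.23 against -0.49 and -0.64, adjusted p = 0.0299), and Vom2r15 as the lower one. Neither naive array detected Or52m2 and 1 detected Or52e51, so both passed only through the MSC group. The median of the 141 was 0.83, against 0.68 over the dimmest 10% of all features. These genes are close copies of each other, so a single value is uncertain, and a gene that passed only through its brighter group had to differ.

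The EV-treated arrays are set beside these values without counting overlaps, since the comparisons share arrays. EV minus naive, which shares the naive arrays, gave 0 calls (0%) by limma, with 873 features at an unadjusted p under 0.05. The difference between the treatments was tested as EV minus MSC, where 3299 features (16%) were called, 732 higher (3.54%) and 2567 lower (12.4%). Cd163 was at -2.66 and -3.32 on the EV arrays, -1.88 from MSC-treated lung (adjusted p = 0.0322). Hsd11b1 was at 0.70 and 0.48 (2.41, adjusted p = 0.019) and Lcn2 at 1.44 and 1.12 (2.09, adjusted p = 0.019), while their naive levels were 0.55 and 0.29 for Hsd11b1 and 1.21 and 0.95 for Lcn2. C1qa was at 0.20 and -0.31 (-1.61, adjusted p = 0.0401).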

How the data were processed

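The 8 samples were hybridised as 1-colour Cy3 arrays on 1 slide, from 200 ng of RNA per the labels. The deposited values are spot intensities that the authors obtained with Agilent Feature Extraction 10.7.3.1, per the file headers, background-subtracted and not normalized between arrays, and the deposited flags hold 0 or 1 for detection and outlier spots. Control spots and outlier spots were left out here, spots of a probe were averaged, and levels are log2 intensity minus each array's 75th percentile. Probes detected on both arrays of either group were kept, with the brightest probe for each gene, named by RefSeq accession without version through a RefSeq table of GRCr8, which is also the source of the promoters. Symbols of 2787 genes have several kept probes.

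Group means were compared by limma 3.58.1 under R 4.3.3 (lmFit and eBayes, 4 group means over 8 arrays, so that the naive and MSC groups share the spread of all groups), 2-sided, with Benjamini-Hochberg adjustment over all features at 0.05. Spike-in scaling used 7 of 10 E1A probes, those with a mean log2 intensity above 6. In 42 cases a kept feature had no value on 1 of the 4 arrays because its spots were outliers, and the fit left that array out for it. The code was tested on simulated data. A first run kept outlier spots and gave 88 calls. The choice to leave them out was stated in the design, and keeping them is an alternative added after the data were seen.

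The named genes are the 10 highest and 10 lowest called genes, the list members with the smallest p-values or differences and a fixed set of smoke genes, and some of them are not reported here. Complement genes and other named list members or calls were chosen after their values were seen. The members and the 40 lists, with 517 of 667 genes measured, were chosen with earlier results of these data known. Same-numbered arrays of the naive and MSC groups shared a row of the slide. Their deviations correlated at 0.17, the highest of 6 pairs of groups (-0.18 to 0.17). Whether the numbers pair the samples is not known.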

Additional observations from a re-analysis of the deposited data

Results flagged for a closer look

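On the percentile scale the difference between the treatments passed the test in 3299 features (EV minus MSC, limma, Benjamini-Hochberg). This is the test of whether MSC minus naive differs from EV minus naive. For the named genes called higher against naive lung, EV minus MSC in log2 was -2.81 for Or52m2, -1.88 for Cd163, -2.55 for Mcpt1, -2.64 for Ephb2, -2.13 for Or52e51, -2.08 for Or8h7b, -2.38 for Ly49s5, -2.23 for Zfp507, -2.24 for Vangl1 and -1.97 for Zzz3. For those called lower it was 3.67 for Gpr158, 2.52 for Vom2r15, 2.64 for Ccdc68, 3.35 for C2cd2l, 3.25 for Fundc2, 1.97 for Igsf21, 2.12 for Kctd21, 2.33 for Atp13a4 and 2.37 for Smc5. Each of these differences has the opposite sign to the gene's MSC minus naive difference, with which it shares the MSC arrays. Outside the main measurement, 14 ERCC control probes were well above background on both MSC arrays, against 8 on both naive arrays.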

How the results depend on the processing

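Of the 151 called features, 83 were still called with spike-in scaling, a common shift that can only enlarge the lower calls, and with normexp 71 were still called and 26 changed sign. The number called was 3278 with E1A spike-in scaling (64 higher, 3214 lower), 270 with normexp background (212 higher), 654 with quantile normalization (284 higher, 370 lower), 0 with no filter on dim probes (0 higher, 0 lower), 258 with probes detected on all 4 arrays (187 higher), 73 with the mean of the probes of a gene (49 higher, 24 lower), 68 in a fit of the 2 groups only (59 higher, 9 lower), 93 without both smoke arrays (14 lower), 378 with a trended and robust prior (242 higher, 136 lower) and 88 with outlier spots kept (61 higher, 27 lower). Cyclic loess gave 90 lower. Leaving out each replicate in turn gave 1 to 316 calls (0 to 184 higher, 1 to 156 lower), with the fewest without naive replicate 2, where the single array left is taken to have the spread of the others. Features near naive were 4814, and 6 with spike-in scaling, 8968 with normexp, 2718 with no filter, 1364 with 2 groups only and 2170 to 3504 leaving out a replicate. Among named genes, the sign turned with normexp for Atp13a4 (0.28), C2cd2l (0.028), Fundc2 (0.074), Kctd21 (0.21), Smc5 (0.30) and Vom2r15 (0.012), each on 0 of 2 MSC arrays well above background. The cause of these changes was not tested. With a replicate block as a term 203 features were called (151 higher, 52 lower), and whether the numbers pair the samples is not known. Differences of features below background are limited by signal.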
